A study of Drosophila melanogaster with 4 samples.

Results

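TSSs inside 3′ untranslated regions (3′ UTRs) were examined among the transcription start sites (TSSs) of Drosophila melanogaster embryos. A TSS was taken as a member when it lay more than 200 bp from every transcript start annotated on its strand, inside an annotated 3′ UTR, and outside every coding sequence (CDS) and 5′ UTR of that strand. The deduplicated TSS list held 46925 TSSs, of which 46727 lay on the chromosome arms, and 1054 of these (2.26%, 95% Wilson interval 2.12 to 2.39%) were 3′ UTR TSSs. In the full list before deduplication the same rule found 1813 TSSs, or 0.787% of those on the arms. The RNA came from wild type Canton S flies kept in population cages, whose embryos were collected at 0 to 12 h, with no treatment and no second strain or genotype. Capped small RNA sequencing (csRNA-seq), which reads RNAs of 20 to 60 nt enriched for a 5′ cap, was applied in 3 libraries, and 1 input library was made beside them. The material, labelled as embryonic cells, was of mixed age, and in such bulk RNA few cells that use a TSS and low use in many cells cannot be told apart. Gap genes and pair-rule genes, which pattern the early embryo, had a median coverage at their gene starts of 265 (6 genes) and 279.9 (9 genes), against 22.1 over all 12964 genes with 3′ UTR bases that met the rule.

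The 3′ UTR is the part of an mRNA after the stop codon, and it carries sites for RNA-binding proteins and microRNAs that set the stability, location and translation of the message. Transcription of a gene normally begins at its promoter and runs through the 3′ UTR to the cleavage and polyadenylation site. A capped 5′ end inside a 3′ UTR can mark a start of transcription there, a promoter of a neighbouring gene, or a longer RNA that was cut and capped again. The 5′ ends read by csRNA-seq do not tell these apart. Capped RNAs were enriched for and the input was not analysed here, so whether each 5′ end was capped was not tested.

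The values have no spread between replicates. The coverage of a TSS is the number of read 5′ ends at that base scaled to 10000000 reads, and each of the deposited values was a whole number of reads of only 1 of 3 libraries, with 7299457, 5931389 and 4070746 reads. A single read is therefore worth 1.37, 1.69 or 2.46 units of coverage. Of the 3′ UTR TSSs, 19.2%, 45.4% and 35.4% took their value from these libraries in that order, against 27.4%, 38.1% and 34.5% of those near starts (within 200 bp). No test across samples was possible, and all intervals are 95% intervals (Wilson for shares, exact Poisson for densities) that cover counting error only, since PCR copies were not told apart.

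Most 3′ UTR TSSs had very few reads in the library that gave their value. Reads of the other libraries at these bases are not known. Of the 1054, 621 (58.9%) had 2 reads, 268 (25.4%) had 3 reads, 165 had 4 or more and 34 had 10 or more. Their coverage had a median of 4.91, with quartiles of 3.37 and 5.06, a 90th percentile of 7.37 and a maximum of 1595. TSSs in CDS had the same median and quartiles, TSSs in introns had the same median with an upper quartile of 7.37, and TSSs within 200 bp of a start had a median of 42.1. A coverage of at least 10 was reached by 62 of the 3′ UTR TSSs (5.88%, 4.62 to 7.47%), against 6.31% of TSSs in CDS, 15.6% in introns and 79.1% near starts. The same limit was reached by 30.2% of all TSSs on the arms and by 13.7% of those farther than 200 bp from a start, so 3′ UTR TSSs and CDS TSSs both lay below this background. The share of the list that fell in 3′ UTRs was 3.56% among TSSs with 2 reads, 2.91% with 3 reads, 1.39% with 4 to 9 reads, 0.526% with 10 to 49 reads and 0.0441% with 50 or more (2 of 4535). The lowest coverage of a member was 3.37, which is 2 reads of the library with 5931389 reads. Members valued from the library with 7299457 reads therefore had at least 3 reads, and the classes by reads do not draw on the libraries equally. All 3′ UTR TSSs together held 0.125% of the coverage on the arms.

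**Figure D1:**
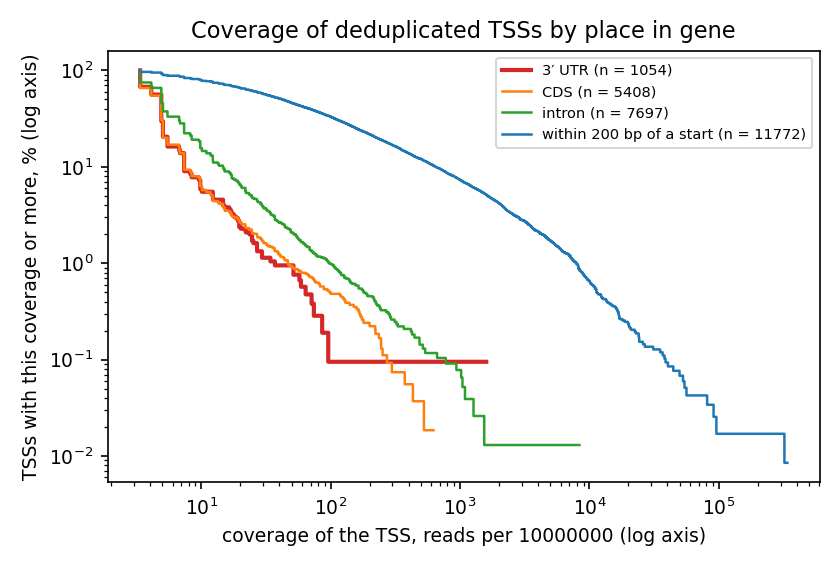
Share of deduplicated TSSs (%, log axis) that reached a given coverage (reads per 10000000, log axis), with 1 line each for TSSs in 3′ UTRs, in CDS, in introns and within 200 bp of an annotated start. The 3′ UTR line runs close to the CDS line up to a coverage of 50 or so and ends in a single TSS at 1595, while the line of TSSs near starts lies far to the right of the others.

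Per base, 3′ UTRs held fewer TSSs than coding sequence and more than introns. The bases that met every part of the rule came to 6.77 Mb, and the density of 3′ UTR TSSs on them was 156 per Mb (146 to 165), against 252 per Mb (246 to 259) in CDS and 126 per Mb (123 to 129) in introns. Among TSSs with a coverage of at least 10 the order differed. The density was then 9.16 per Mb (7.02 to 11.7) in 3′ UTRs, against 15.9 per Mb (14.3 to 17.7) in CDS and 19.7 per Mb (18.6 to 20.9) in introns. The plus strand held 535 of the members and the minus strand 519.

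The strand of the gene held more TSSs than the opposite strand over the whole list, but not among better covered TSSs. On the 5.89 Mb of 3′ UTR bases that no gene covers on the other strand and that lie farther than 200 bp from any start there, 950 TSSs ran in the sense of the gene and 681 ran antisense, which is 58.2% sense (55.8 to 60.6%). With at least 3 reads the counts were 384 sense and 378 antisense (50.4% sense, 46.9 to 53.9%). With a coverage of at least 10 they were 53 sense and 105 antisense, or 33.5% sense (26.7 to 41.2%), so antisense TSSs outnumbered sense TSSs at this level. These limits on reads and coverage were chosen after the data were seen.

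The TSSs were mostly isolated. Grouped with TSSs of the full list whose 200 bp windows overlapped on the strand, 845 of the 1054 (80.2%, 77.7 to 82.5%) stood alone, against 74.1% in CDS, 71.4% in introns and 13.7% near starts. Among members with a coverage of at least 10, 24 of 62 stood alone. Another 90 members belonged to groups of 3 or more TSSs, the largest of 19 TSSs at CNBP, and 2 members belonged to groups that also held TSSs near a start. A TSS on the opposite strand lay within 500 bp upstream of 98 members (9.30%, 7.69 to 11.2%), against 8.28% in CDS, 17.9% in introns, 37.5% near starts and 18.3% over all TSSs farther than 200 bp from a start. Downstream, an opposite-strand TSS lay within 500 bp of 95 members (9.01%, 7.43 to 10.9%), against 6.07% in CDS and 15.2% over all TSSs away from starts. A gene on the other strand covered the position of 98 members (9.30%, 7.69 to 11.2%), against 12.6% of eligible bases.

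One 3′ UTR TSS stood far above the others. It lay in CG11700 (FBgn0029856), on the minus strand of chromosome X (dm6, position 6282171), 107 nt after the stop codon and 134 nt before the transcript end in a 3′ UTR of 241 nt. Its coverage was 1595 (946 reads), which was 20.6% of the summed coverage of all 1054 members. The sum was 7760 with it and 6165 without it, while the median was 4.91 in both cases. The most covered TSS at the annotated start of CG11700 had a coverage of 2858, so that the TSS in the 3′ UTR had 0.558 of the coverage at the start. The next annotated start on the strand, of the pseudogene CR32745, was 1419 bp downstream and had no TSS within 200 bp. The gene after it on the strand was Ubi-p5E, a polyubiquitin gene that ran down from position 6279647.

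The TSSs around this position repeated the pattern at the start of the same gene. The TSS in the 3′ UTR lay 1417 bp downstream of the most covered TSS at the annotated start. Of the 21 bases within 10 bp of the position in the 3′ UTR, 11 had a TSS, and of the 21 bases at the start 14 had one. A TSS stood at both places for 10 bases, and the 4 most covered bases came in the same order. Both places were aligned at their most covered base, so that base matched and came first by construction. In the 3′ UTR these 4 had coverages of 1595, 287, 224 and 133, against 2858, 678, 512 and 225 at the start. Whether the sequences around both places are alike, and how reads that could belong to either were placed, was not tested, so the coverage of this TSS is uncertain. In the same way, 33 members with at least 3 TSSs within 10 bp were each aligned to their own host start, so the shift differed between members. The median share of TSSs with a match at the shifted place was 66.7%, and for 13 members every TSS had one. These shares count the aligned base, which always matches, so they overstate how common other matches were. At the starts of these 13 members, 42.9 to 85.7% of the bases compared had a TSS. Many bases would thus match at other offsets too, and the shares do not show a repeated pattern.

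**Figure D2:**
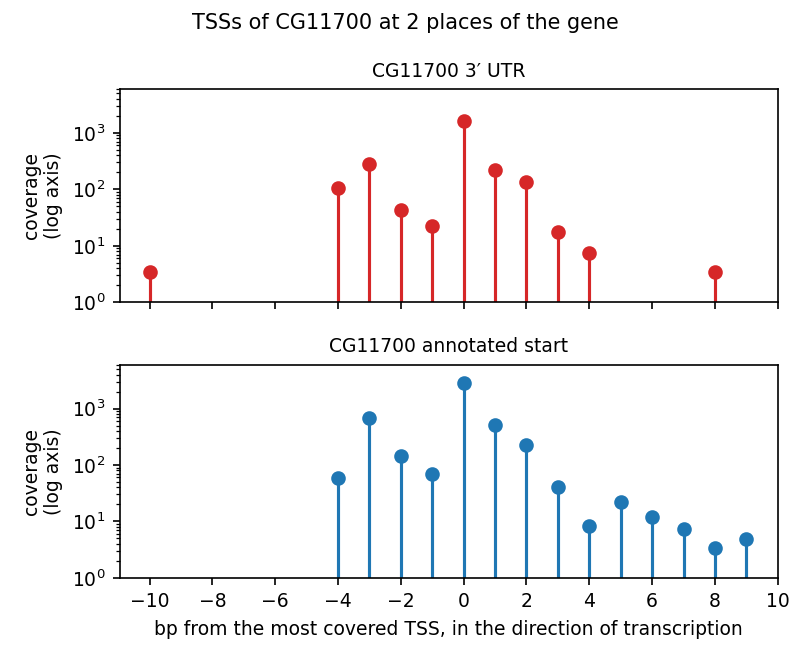
Coverage (log axis) of each TSS of the full list within 10 bp of the TSS in the 3′ UTR of CG11700 (upper panel) and within 10 bp of the most covered TSS at the annotated start of the gene (lower panel), by distance in bp in the direction of transcription. The highest point lies at 0 in both panels by the alignment, at 1595 in the 3′ UTR and at 2858 at the start. A TSS stands in both panels at 10 positions, with 0 among them.

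The other 14 of the 15 members with the highest coverage lay between 27.0 and 95.8. The second, in CG8757 at position 13840898 on the minus strand of 3L, had a coverage of 95.8 (39 reads) and stood in a group of 6 TSSs spanning 7 bp. A gene on the other strand covered its position. Mayo followed with 86.0 at position 31106469 on the minus strand of 3R, 136 nt after the stop codon, and CG6583 with 74.2 at position 12171477 on the minus strand of 2L. Drsl4, a gene of the drosomycin-like antimicrobial peptides, had a TSS with a coverage of 71.2 (52 reads) at position 3315925 on the plus strand of 3L, 17 nt before the transcript end of a 3′ UTR of 90 nt. These 4 TSSs and that of CG11700 had 35 or more reads each.

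The other 10 members of this upper range lay in genes of many kinds. Pa1 had a TSS with a coverage of 64.1, CG45092 one with 59.0 in a 3′ UTR stretch annotated for 2 genes, and CNBP one with 57.3. The TSS in opa, a zinc finger transcription factor of the pair-rule class, had 51.6 (21 reads) at position 4869413 on the plus strand of 3R, 250 nt after the stop codon, and stood alone. The TSS in swi2 also had 51.6 and stood alone. In mts, the catalytic subunit of protein phosphatase 2A, a lone TSS at position 7832994 on the plus strand of 2L had 37.1, and in mamo, a zinc finger protein, a lone TSS had 34.2 at 6733 nt into a 3′ UTR of 7983 nt. The TSSs of aqz and Lerp, the lysosomal enzyme receptor protein, had 29.5 each, and that of Ptp99A, a receptor tyrosine phosphatase, had 27.0. Of these 10 TSSs, 6 were the only TSS of their group.

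The genes that held a 3′ UTR TSS were mostly genes with a TSS at their own start. Of the 1054 members, 984 (93.4%, 91.7 to 94.7%) lay in a host gene with a deduplicated TSS within 200 bp of one of its annotated starts. Counted over genes, 894 of the 959 hosts (93.2%, 91.5 to 94.6%) had a start TSS, against 8313 of 12005 other genes with eligible 3′ UTR bases (69.2%, 68.4 to 70.1%), where the share over all such genes was 71.0%. Among genes with a start TSS, the median coverage there was 164 for hosts and 49.3 for the other genes, and with the genes that had none counted as 0 it was 138 for hosts and 19.7 for the other genes. The hosts also offered more bases, with a median of 981 eligible bp per host against 191 bp per other gene.

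Per base, the density of 3′ UTR TSSs was higher where the start of the host was better covered. It was 79.3 per Mb (61.8 to 100.2) in genes with no start TSS, 90.5 per Mb with a start coverage under 10, 149 per Mb from 10 to 100, 188 per Mb from 100 to 1000 and 205 per Mb (177 to 236) at 1000 or more. The highest of these classes exceeded the class with no start TSS by a factor of 2.58 (1.95 to 3.45). The median coverage of the 3′ UTR TSSs was 4.91 in each class. This value is 2 reads of the library with 4070746 reads, near the lowest possible, so equal medians do not show equal levels. Among the 62 members with a coverage of at least 10, in contrast, the factor was 1.07 (0.366 to 3.19), an interval that includes both the value over all members and no difference. In the full list the factor was 6.0 (4.78 to 7.60). Neighbouring TSSs of the same group count separately there, so this interval is too narrow and the factor also reflects the number of TSSs per group. The part of the host start coverage in these densities was not tested.

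**Figure D3:**
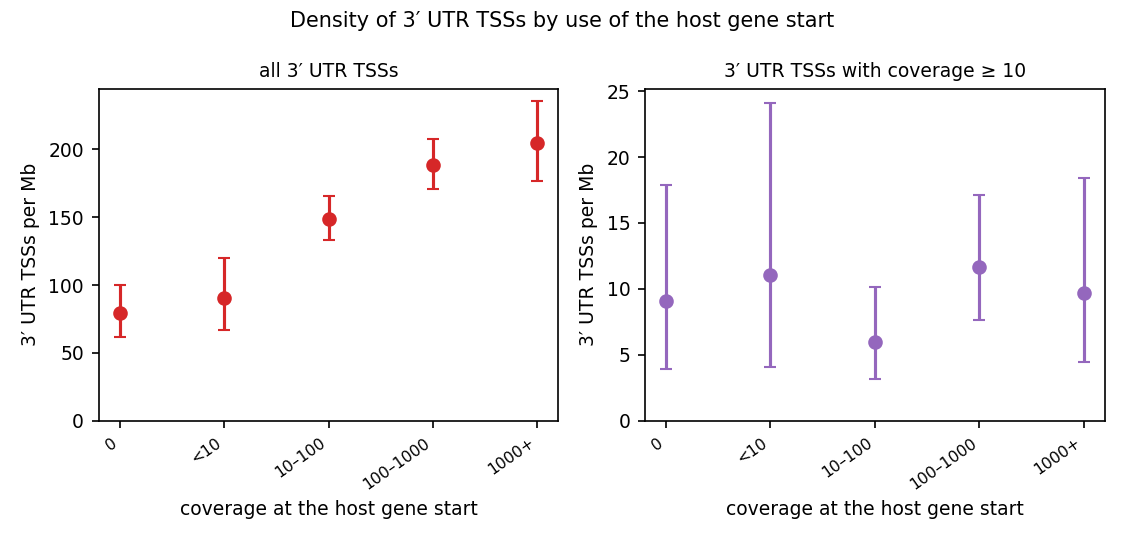
Density of 3′ UTR TSSs (TSSs per Mb of eligible 3′ UTR bases) in 5 classes of coverage at the start of the host gene, for all members (left panel) and for members with a coverage of at least 10 (right panel), where points are densities and bars are exact 95% Poisson intervals. The left panel runs from 79.3 to 205 per Mb, and in the right panel the intervals of all classes overlap.

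The level of a 3′ UTR TSS showed little relation to the level at the start of its gene, by a measure with little room to show one. Of all members, 84.3% had 2 or 3 reads, so their coverage took few distinct values. Spearman's rho between both coverages was 0.03 over the 984 pairs and -0.20 over the 54 pairs in which the 3′ UTR TSS had at least 10, where pairs share the libraries and their depth. The median ratio of the coverage in the 3′ UTR to that at the start was 0.0259, with quartiles of 0.00752 and 0.0915. Only 15 of 984 members (1.52%, 0.926 to 2.50%) exceeded the most covered TSS at the start of their host, and 2 equalled it. Of the 54 members with a coverage of at least 10 and a start TSS, 9 exceeded it.

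**Figure D4:**
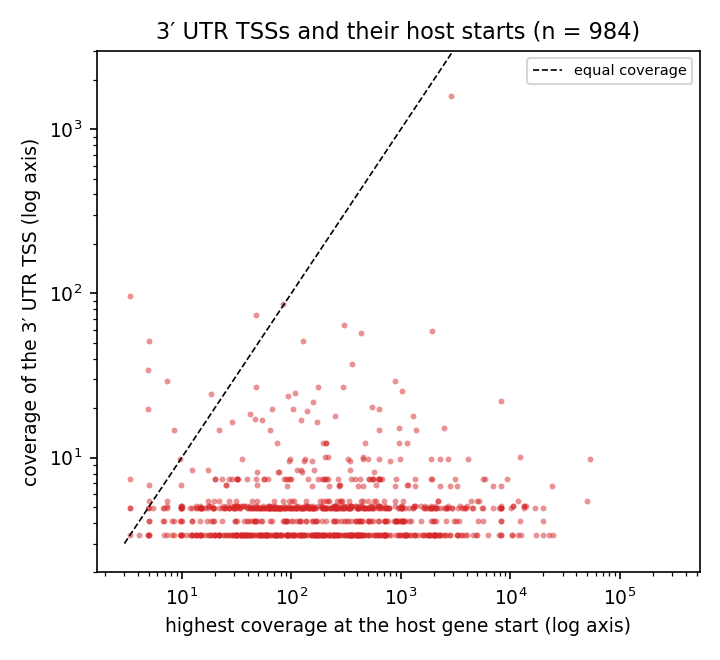
Coverage of each 3′ UTR TSS against the highest coverage at the start of its host gene (both log axes) for the 984 members with a start TSS, where the dashed line marks equal coverage. The points form a band near the lowest values at every level of the start, and 15 lie above the line.

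The members that exceeded their host start lay mostly in genes with weak starts. This follows in part from the low coverage of the members, whose 90th percentile was 7.37. The TSS in CG8757 had 95.8, against 3.37 (the lowest value in the list) at the start, a ratio of 28.4. The TSS in swi2 had 51.6 against 5.06 at the start, that in mamo 34.2 against 4.91, that in Lerp 29.5 against 7.37 and that in CG33543 19.7 against 4.91. Smaller ratios were found at CG6583 (74.2 against 47.9 at the start), CG7378 (14.7 against 8.43) and NPFR, the neuropeptide F receptor (24.6 against 18.5). Mayo (86.0 against 84.3) and nompC, a mechanosensory channel (9.83 against 9.59), were close to equal to their starts. Weak starts such as these rest on few reads, and the values compared can come from different libraries, so their ratios are imprecise.

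Another 70 members lay in genes with no TSS at any annotated start, 8 of them with a coverage of at least 10. Drsl4 was the highest with 71.2. CG14607 had 24.7 in a 3′ UTR of 165 nt, Dnah3, a dynein heavy chain gene, had 19.2, and HP1D3csd had 17.2. CG13255 had 14.7, and CG14763, CG14744 and CG32694 had 12.3 each. These genes other than Drsl4 were named after their values were seen.

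The distance to the next gene downstream was much the same for 3′ UTR TSSs as for 3′ UTR bases at large. The next annotated start of another gene on the strand lay at a median of 4771 bp from a member, against 4930 bp from an eligible base. It lay within 2000 bp for 275 members (26.1%, 23.5 to 28.8%), against 26.6% of eligible bases, and within 5000 bp for 547 members (51.9%, 48.9 to 54.9%), against 50.4% of eligible bases. Within 500 bp the share was lower, with 33 members (3.13%, 2.24 to 4.36%) against 5.59% of eligible bases. The density up to 500 bp was 87.2 per Mb (60.1 to 123), against 176, 167, 169 and 164 per Mb in the steps up to 1000, 2000, 5000 and 10000 bp and 144 per Mb beyond. The density within 500 bp was 0.520 (0.355 to 0.736) of that from there to 10000 bp. In the full list, in which TSSs near a more covered TSS are retained, this ratio was 1.11 (0.911 to 1.34), and the smallest distance between deduplicated TSSs of a strand was 401 bp. The interval for the full list is too narrow, since neighbouring TSSs of the same group count separately.

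A TSS at the next annotated start was about as frequent as at annotated starts in general. Only the nearest start was read, so a next gene used from another of its starts counted as having none. Of the 275 members with a start within 2000 bp downstream, 162 (58.9%) had a deduplicated TSS within 200 bp of that start, against 54.7% of all annotated start positions. The 275 members had a median coverage of 4.91, against 57.7 at those 162 starts, and 9 members exceeded the TSS at the next start. Coverage of the 3′ UTR TSS and distance to the next start gave a Spearman's rho of 0.01 over 1053 members, most of which had only 2 or 3 reads. A coverage of at least 10 was found for 16 of 275 members within 2000 bp (5.82%, 3.61 to 9.24%) and for 46 of 778 beyond (5.91%, 4.46 to 7.80%). Both properties together showed the same. In hosts with a start TSS the density was 166 per Mb with the next start within 2000 bp and 168 per Mb beyond, and in hosts without one it was 66.8 per Mb (38.2 to 109) and 82.6 per Mb (61.9 to 108).

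Among the highest members with a near neighbour, the nearest start of the neighbour had a TSS in some cases and not in others. The TSS of Drsl4 (71.2) lay 856 bp upstream of the start of Drsl5, another drosomycin-like gene, where the coverage was 764. The TSS of mamo (34.2) lay 1500 bp upstream of AMPdeam, the AMP deaminase gene, which had 123, and that of sstn (24.7) lay 727 bp upstream of Plp, a pericentrin-like centrosome protein, which had 64.1. CG11905 (27.0) preceded CG13023 by 1065 bp, with 84.3 at its start, and GlcT, glucosylceramide synthase, had 16.9 at a TSS 934 bp upstream of Synj, synaptojanin, with 23.6. CNBP was the reverse case among them, with 57.3 in its 3′ UTR against 11.8 at the start of CG3788 629 bp downstream. No TSS was found within 200 bp of the next start for CG11700, aqz (29.5), RpS6 (25.3) and Pka-R1 (23.6), a regulatory subunit of protein kinase A. The TSS of RpS6, a protein of the small ribosomal subunit, lay 25 nt after the stop codon and 552 bp upstream of an annotated start of CR33222, and the start of RpS6 itself had a coverage of 1027.

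**Figure D5:**
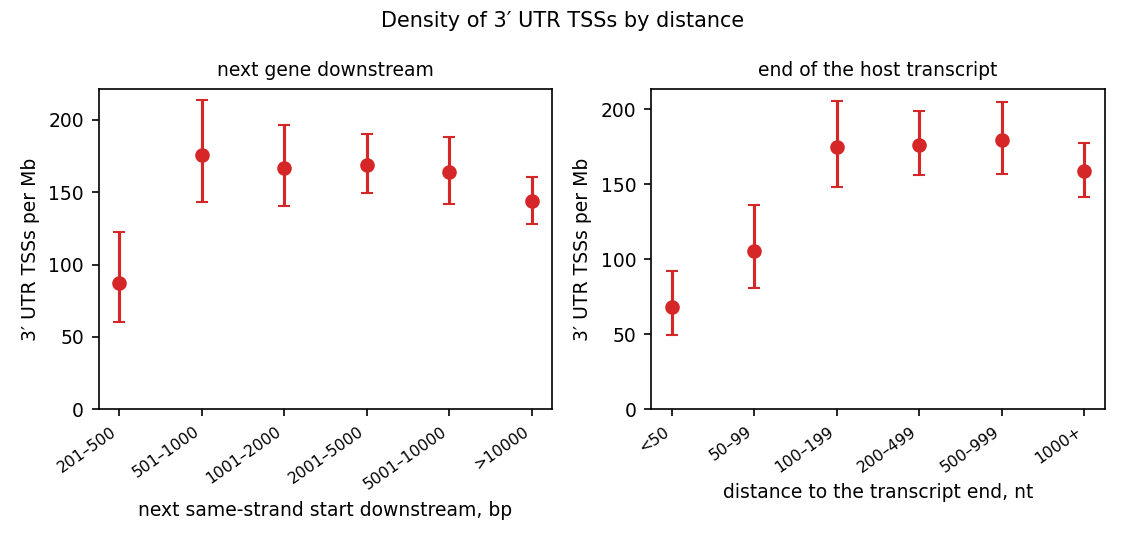
Density of 3′ UTR TSSs (TSSs per Mb of eligible bases, with exact 95% Poisson intervals) by distance to the next annotated start on the strand downstream (left panel, bp) and by distance to the end of the host transcript (right panel, nt). The lowest densities are in the nearest class of each panel, 87.2 per Mb within 500 bp of a start and 68.4 per Mb within 50 nt of a transcript end.

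Within the 3′ UTR, TSSs were more frequent in the first 25% of its length and less frequent near the end. Positions were taken along the longest annotated 3′ UTR at each base, and whether these embryos use its end was not tested. The first 25% of the 3′ UTR held 30.5% of the members (27.8 to 33.3%), against 23.7% of eligible bases, and the last 25% held 18.1% of the members (15.9 to 20.6%), against 26.5% of eligible bases. By distance to the transcript end, the density was 68.4 per Mb (49.5 to 92.1) under 50 nt, 106 per Mb (80.4 to 136) from 50 nt to under 100 nt, and between 159 and 179 per Mb in all classes farther away. The density under 100 nt was 0.504 (0.406 to 0.618) of that at 100 nt or more. From the stop codon, it was between 164 and 196 per Mb in all classes under 1000 nt and 106 per Mb (92.9 to 121) at 1000 nt or more. Among members with a coverage of at least 10, the ratio at the transcript end was 1.13 (0.547 to 2.15), and the difference was not detectable at this number of TSSs.

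Few genes held several 3′ UTR TSSs. Of the 959 hosts, 875 held 1 member, 74 held 2, 9 held 3 and 1 held 4, and 12 members lay in the 3′ UTRs of more than 1 gene. The 10 hosts with 3 or more had start coverages of 194 to 19805, and the 5 of them chosen by number of members and then by eligible bases are described first. The 4 TSSs of sqd, a nuclear ribonucleoprotein that binds localized mRNAs, had coverages of 4.11, 3.37, 3.37 and 3.37, against 1996 at its start, on 6003 eligible bp. Hrb27C, another such ribonucleoprotein, had 12.3, 5.48 and 3.37, against 194 at its start. EcR, the ecdysone receptor, had 6.74, 3.37 and 3.37 against 2802, Glut4EF, a transcription factor, had 5.06, 5.06 and 4.91 against 13354, and drn had 9.83, 4.91 and 3.37 against 2297. Each 3′ UTR TSS of these 5 genes was far below the start of its gene, and those of a gene share its transcripts and are not independent. Among the other 5, named after their values were seen, aqz held the TSS of 29.5 given above beside 5.06 and 4.11, and Inx2, an innexin of gap junctions, held 22.1, 6.74 and 4.91, against 8193 at its start. The TSSs of chrb, CG42342 and Lsd-2 had 7.37 or less, against starts of 19805, 625 and 209.

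Genes with long neural 3′ UTRs often held a 3′ UTR TSS, at a density per base close to that of all genes. Of 10 genes whose 3′ UTRs are extended in neurons under the RNA-binding protein ELAV, 6 held a member (AGO1, brat, elav, fne, nej and pum), against 7.40% of all 12964 genes. Their median was 4764.5 eligible bp a gene, against 211 over all genes, and the 10 members gave 151 per Mb (72.4 to 278), against 156 over all. The highest were 9.59 in elav, the neuronal RNA-binding protein itself, and 8.43 in AGO1, the Argonaute of the microRNA pathway. Both TSSs of pum, a translational repressor, had 5.06, both of brat, its partner, 4.91, that of fne 4.91 and that of nej, a histone acetyltransferase, 3.37. Of 9 microRNA pathway genes, AGO1 alone held members.

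Of 11 maternal axis and germ plasm genes, 4 held 1 TSS each (36.4%), against 7.40% of all genes, on a median of 787 eligible bp a gene, against 211 over all. Their density was 513 per Mb, with an interval of 140 to 1314 that includes the 156 per Mb over all genes. The TSS had a coverage of 4.91 in stau, 4.11 in nanos and in pgc, and 3.37 in osk, genes known for mRNAs or proteins of the germ plasm. That of nanos, a translational repressor, lay 9 nt after the stop codon, and its start had 135. Those of pgc and osk lay 465 and 476 bp upstream of the next annotated start, which had no TSS for pgc and 45.5 for osk (ScsbetaA). Of 83 eligible cytosolic ribosomal protein genes, whose starts had a median coverage of 5284, 3 held a member (RpS6 with 25.3, RpL37A and RpL35A with 4.91 each), at 126 per Mb (25.99 to 368) on a median of 168 eligible bp a gene. Of 8 Hox genes, abd-A alone held a TSS (7.37, against 89.4 at its start), opa was the only one of 9 pair-rule genes, and none of 6 gap genes held any. Members of these lists with a coverage under 10 were named after their values were seen.

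At the limit of 200 bp the members were weak on both sides. The 3 members nearest to a start, in vsg, MBD-R2 and CG43221 at 203, 208 and 216 bp, had coverages of 3.37, 3.37 and 4.91. The 3 TSSs in 3′ UTRs just within the limit, in Taf8, CG10474 and CG9662 at 188, 177 and 174 bp from a start, had 3.37 each. In all, 22 TSSs in 3′ UTRs fell within 200 bp of a start, with a median coverage of 5.27.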

How the data were processed

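csRNA-seq was made by the authors from Canton S embryos in 3 libraries, with 1 input library. Per the labels and the submitters' processing notes (bcl2fastq 2.17, HOMER 4.11, STAR 2.7.9a, bedtools 2.30.0), reads were trimmed, aligned to dm6, and TSSs were called from read 5′ ends with a minimum of 3 set by the authors. Each deposited value is a signal, coverage scaled to 10000000 reads, and there is 1 value per TSS for the whole experiment, with the most covered TSS of overlapping windows of 200 bp on each side retained in the deduplicated list. The authors also deposited log2(x + 1) of this coverage, with a pseudocount of 1, which is the same measure and was not analysed separately. Values of the input and of separate libraries were not analysed here, nor was the genome sequence.

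Reads were recovered for 232302 of 232302 values as multiples of 1 of 3 steps. Transcripts, UTRs and CDS came from Ensembl release 115, without transposable element genes. Eligible bases met every part of the rule. Host start coverage was the most covered deduplicated TSS within 200 bp of any start of the gene, and the next gene was the nearest start of another gene downstream on the strand. The rule was tested on simulated positions (2000 of 2000 recovered), and a planted density ratio of 2 was recovered as 1.93. The work ran in Python 3.11.15 with pandas 2.3.3 and NumPy 2.4.6 for the tables, intervals from SciPy 1.17.1, and plots from matplotlib 3.10.9.

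A fixed rule chose the genes given by name. It took the 15 members with the highest coverage, the 5 hosts with the most members, the 10 highest with a next start within 2000 bp, the 10 highest above their host start, 3 on each side of the 200 bp limit, and members of listed genes with a coverage of at least 10. Older symbols in the lists (nos, h and R2D2) were matched to the annotation's nanos, hry and r2d2. Members and gene lists were chosen with earlier results of these data known. Alternatives were other distances to a start, minimum reads or coverage, the full list, other annotation choices, another measure of the host start, protein-coding next genes and a 250 bp window.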

Additional observations from a re-analysis of the deposited data

How the results depend on the processing

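The number of 3′ UTR TSSs was 1054, and it was 1012 at 500 bp from a start, 1066 at 50 bp, 1050 with transposable element genes and 927 without bases that other transcripts hold as intron or noncoding exon. It was 1813 in the full list, 433 with at least 3 reads, 165 with at least 4 reads and 62 with a coverage of at least 10, so that its size depended on the minimum of reads. The density was 268 per Mb in the full list, 64.0 per Mb with at least 3 reads and 9.16 per Mb with a coverage of at least 10.

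In the full list 95.1% of members had a host start TSS, 32.0% had the next start within 2000 bp, 17.7% had an opposite-strand TSS upstream and 61.1% were sense. The density ratios there were 6.0 for the host start, 1.11 for the next start within 500 bp and 0.673 for the transcript end. With a coverage of at least 10 these shares were 87.1% for the host start, 14.5% for the opposite strand and 33.5% for sense, 25.8% of members lay in the last 25% of the 3′ UTR, and the ratios were 1.07 for the host start and 1.13 for the transcript end. With at least 3 reads 50.4% were sense and the ratio for the next start was 0.332. With protein-coding next genes only, 23.3% of members had the next start within 2000 bp, and within 250 bp 6.07% had an opposite-strand TSS. The cause of these differences was not tested. The alternatives for the sense share, the density ratios, the coverage without CG11700 and the gene lists were chosen after seeing the data. The majority strand turned from sense to antisense with a coverage of at least 10. Spearman's rho of TSS and host start coverage, 0.03 over all members, was -0.20 with a coverage of at least 10 and -0.02 with at least 3 reads. Over all alternatives, 25 values lay outside the limits around the value given in the text, and 19 lay within them. The limits were its 95% interval, 1.5 times the value for counts, and the quartiles for the median coverage.

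No paired analysis was possible because the csRNA-seq and input samples share only 1 replicate number and each TSS has 1 value, and no leave-one-out value exists for the same reason. The planned shares of bases at the TSSs were not run, since no genome sequence was used here. With 58.9% of the members at 2 reads, differences among members below a few reads were not detectable.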

Other observations

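The density of 3′ UTR TSSs differed little between the chromosome arms. It was 135 per Mb (114.7 to 158) on 2L, 172 (149 to 197) on 2R, 163 (141 to 187) on 3L, 161 (142 to 182) on 3R, 162 (94.2 to 259) on 4 with 17 TSSs, and 147 (129 to 168) on X, and all of these intervals overlap. By length of the 3′ UTR, the density was 98.9 per Mb (78.2 to 123) under 250 nt, 191 from 250 nt to under 500 nt, 189 from there to under 1000 nt, 173 from there to under 2000 nt and 132 (117 to 147) at 2000 nt or more, so that it was highest at intermediate lengths. The median coverage was 4.91 in each class, a value of 2 reads that does not show equal levels.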
